A study of Mus musculus with 9 samples.

Results

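Messenger and long noncoding RNA was compared between mouse LSK cells in which Dicer1 had been deleted and control LSK cells, in 3 Dicer-deleted and 3 control cultures out of 9 cultures in all. The samples were taken by their labels, and the other 3 cultures, in which Drosha had been deleted, entered the fit and serve as a second deletion to set beside the first. LSK cells are sorted from bone marrow as negative for lineage markers and positive for Sca1 and cKit, a fraction with blood stem cells and early progenitors. Control cells carried Gt(ROSA)26Sor CreERT2 alone, Dicer-deleted cells carried Dicer fl/fl with Gt(ROSA)26Sor CreERT2, and Drosha-deleted cells carried Drosha fl/fl with Gt(ROSA)26Sor CreERT2. CreERT2 is a Cre recombinase that tamoxifen activates, and the Rosa26 locus drives it in nearly all cells, so deletion was not limited to a cell type. All mice were female, and their age is not stated in the labels. All cultures, controls included, were kept for 72 h with 250 nM 4OH-tamoxifen, 10 ng/mL IL-3, 10 ng/mL IL-6, 50 ng/mL SCF and 10% serum, at 50000 cells per well. The labels do not say whether the 3 repeats of a group came from separate mice, and the p-values below may rest on technical spread alone.

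Dicer is the cytoplasmic enzyme that cuts hairpin precursors into mature microRNAs, after Drosha and its partner Dgcr8 have released the precursors from the primary transcripts in the nucleus. A mature microRNA sits in an Argonaute protein and pairs through its seed with sites in messenger RNAs, which lowers their stability and translation. In blood formation microRNAs are known for tuning lineage choice, and Dicer is needed for blood stem cells to persist. A comparison of Dicer-deleted with control cells therefore asks which RNAs change when the last step of microRNA production is lost.

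Values are the authors' log2 values, and a difference of 1 log2 unit is a doubling. Each array held 62976 spots. In 8 scanner files 54.2% to 62.3% of probes were well above background, and 35047 probes passed a filter blind to the groups, which left 25243 genes or noncoding regions for testing. The controls did not form 1 group. The scanner file of control 2 had 19.2% of its spots marked as non-uniform, its deposited column correlated at 0.770 with that file against at least 0.974 for the other 8, and the column most like it was control 3 (r = 0.991). Control 3 was the one array on its slide. The column most like control 1 was Dicer-deleted replicate 3 (r = 0.993). On the bright corner control spots the columns of controls 2 and 3 read 13.73 and 13.85, against 15.35 to 15.56 in all other columns. Which array lies behind each control column is not certain. Across features, control 1 lay a median of 0.33 log2 units from the mean of controls 2 and 3 but 0.14 from the Dicer-deleted mean, while controls 2 and 3 lay 0.15 from each other and 0.33 from the Dicer-deleted mean. A difference that controls 2 and 3 show and control 1 does not cannot be told apart from a difference between columns, so results below are given with all 3 controls, without control 2, and against control 1 alone where this moves them by much. With control 1 alone, the spread in the test comes from the other groups, and control 1 is assumed to vary as they do.

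Dicer1 RNA was lower on every Dicer-deleted array than on any other array. It read 9.92, 10.50 and 10.44 in controls 1 to 3 and 8.99, 9.18 and 8.97 in Dicer-deleted replicates 1 to 3. The groups did not overlap, and the lowest control was control 1. The difference was −1.24 (SE 0.23), 2.36-fold lower, and it did not pass after adjustment (limma, adjusted p = 0.134). It was −0.87 against control 1 alone and −1.40 against the Drosha-deleted cells (adjusted p = 0.137). The single Dicer1 probe lies at the 3′ end of the gene on chromosome 12 (mm9, 105926064 to 105926123); the labels do not say which exons are floxed, and a probe outside the deleted part would not register the deletion itself. The labels of the Drosha-deleted arrays were borne out by their own gene, since Drosha stood 3.02 log2 units higher in Dicer-deleted than in Drosha-deleted cells (SE 0.15, adjusted p = 0.000156).

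Of the other genes of the microRNA pathway, Ago2 and Ago1 stood above controls at an unadjusted p under 0.05, and none passed after adjustment. Drosha read 12.04, 11.88 and 11.85 in controls and 11.99, 12.16 and 11.94 in Dicer-deleted cells, a difference of 0.10. Dgcr8 differed by 0.052 and Xpo5, which exports hairpin precursors from the nucleus, by 0.12, and each of these 3 differences changed sign under at least 1 other setting. Of the Argonaute genes, Ago2, whose protein can cut its targets, read 12.29, 11.74 and 12.04 in controls and 12.71, 12.83 and 12.77 in Dicer-deleted cells. Those groups did not overlap, and the difference was 0.75 (SE 0.18, limma, unadjusted p = 0.0029, adjusted p = 0.160), with 0.48 against control 1 alone. The Ago2 probe is named on the array after a cDNA clone, 2310051F07Rik, whereas Ago1, Ago3 and Ago4 carry their older gene names. Whether the Ago2 probe reads the coding transcript was not tested. Ago1 stood 0.44 above controls (unadjusted p = 0.0342, adjusted p = 0.219), whereas Ago4 differed by −0.25 and Ago3 by −0.15 without reaching an unadjusted p of 0.05. Among the 16 tested genes of the silencing complex, 2 were higher and 0 lower at an unadjusted p under 0.05 in limma, against 12.1% of all features higher and 8.39% lower, and 0 passed after adjustment.

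**Figure D1:**
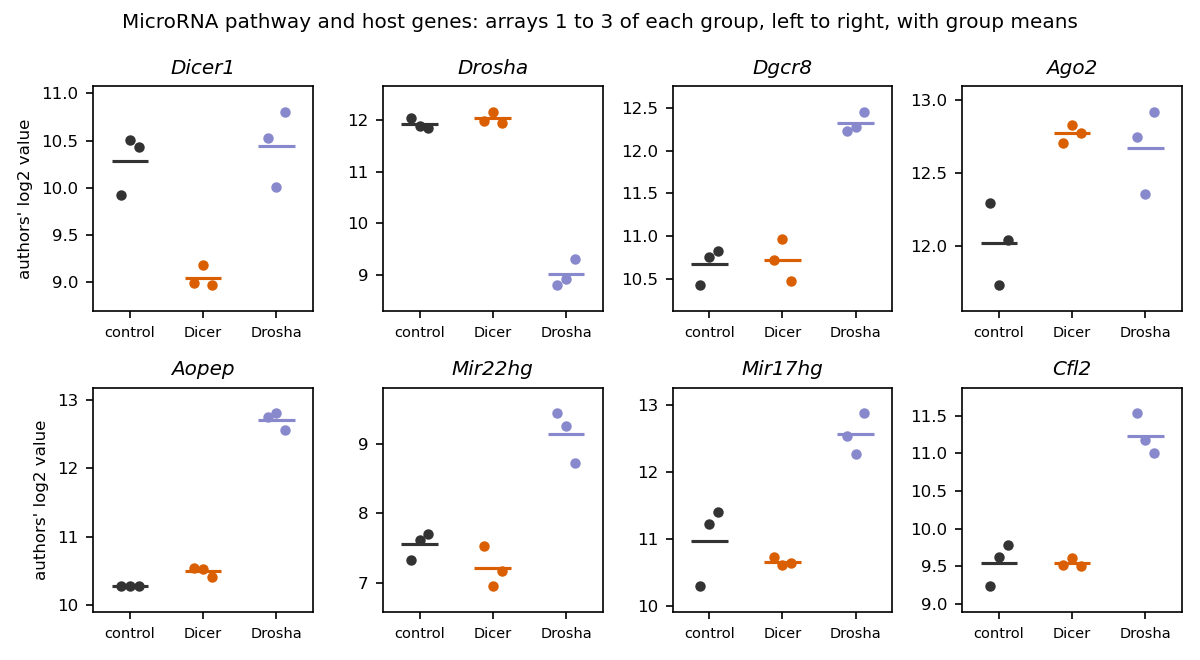
The authors' log2 value (vertical axes) of 8 genes on the 3 control, 3 Dicer-deleted and 3 Drosha-deleted arrays, with a line at each group mean. Dicer1 is lowest on the Dicer-deleted arrays and Drosha on the Drosha-deleted arrays, while Dgcr8, Aopep, Mir22hg, Mir17hg and Cfl2 are highest on the Drosha-deleted arrays and lie near control levels on the Dicer-deleted ones.

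After adjustment over all 25243 features, 1 feature rose and 1 fell in Dicer-deleted cells, each 0.00396% of those tested. Lrmda, a gene named for its part in melanocyte differentiation (probe on mm9 chromosome 14, 23403747 to 23415685), read 8.65, 8.72 and 9.04 in controls and between 6.88 and 7.08 on the 3 Dicer-deleted arrays. The groups lay over 1 log2 unit apart. Lrmda fell by 1.82 (SE 0.15), 3.52-fold (limma, adjusted p = 0.0135), with a difference of −1.67 from control 1 alone. The Drosha-deleted cells stood at 6.82 ± 0.19 (SD, n = 3), a difference from Dicer-deleted cells of 0.16 (unadjusted p = 0.31). LOC100046362, a predicted transcript named here after its values were seen (probe on mm9 chromosome 4, 27794264 to 27794323), read 6.18, 6.66 and 6.30 in controls and 8.37, 8.46 and 8.20 in Dicer-deleted cells. It rose by 1.96 (SE 0.17), 3.90-fold (limma, adjusted p = 0.0135), with a difference of 2.17 from control 1 alone, the lowest of all 9 arrays. For LOC100046362 too the Drosha-deleted cells stood near the Dicer-deleted ones, at 8.21 ± 0.22 (SD, n = 3). The difference between the deletions was 0.14 (unadjusted p = 0.44).

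The sizes of these differences moved little with the arrays used, but the calls did not hold throughout. With any 1 array left out Lrmda lay between −1.89 and −1.70 and LOC100046362 between 1.86 and 2.10. Without control 2, LOC100046362 was still called (adjusted p = 0.0348) and Lrmda was not (−1.86, adjusted p = 0.0659); 5.38% of features were then higher and 4.2% lower at an unadjusted p under 0.05. Leaving out Dicer-deleted replicate 1, 2 or 3 left 0 calls in limma each time, although 3611, 3052 and 3883 features then had an unadjusted p under 0.05. In those fits Lrmda and LOC100046362 had equal adjusted p-values of 0.0983, 0.145 and 0.0733. Both also missed the threshold without Drosha-deleted replicate 1 (adjusted p = 0.0555, 0 calls in all, 4452 at an unadjusted p under 0.05), and LOC100046362 did without control 3 (adjusted p = 0.0737), whereas 8 features were called without Drosha-deleted replicate 3. Without control 1 there were 6766 calls, 3786 higher (15% of features) and 2980 lower (11.8%), and 57 of the 106 genes named here with their differences came past the threshold, Dicer1 among them (adjusted p = 0.00317). With arrays weighted by their fit to the group means there were 9673, where control 1 had the lowest weight (0.161). Against control 1 alone 7 features were higher (0.0277%) and 25 lower (0.099%); in 30 of these 32 control 1 lay outside the range of all 8 other columns, and in 25 controls 2 and 3 both lay within 0.5 of the range of the 6 deletion arrays. Thra, a thyroid hormone receptor gene picked as an example after its values were seen, read 6.69 in control 1 against 11.91 and 11.73 in controls 2 and 3 and 12.22, 12.24 and 12.01 in Dicer-deleted cells.

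**Figure D2:**
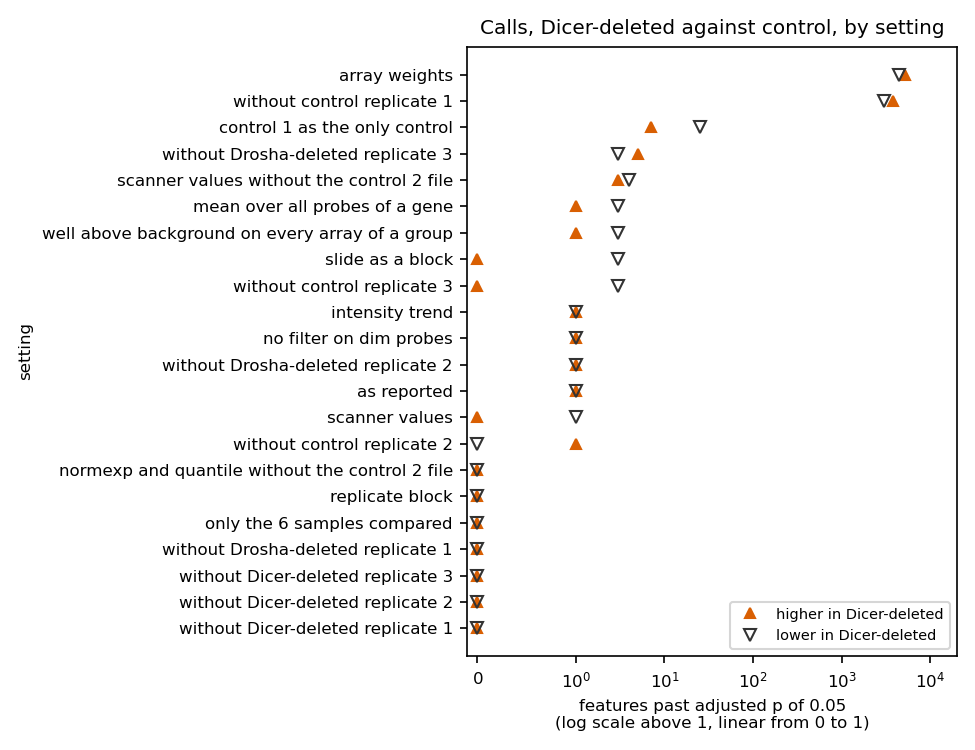
Number of features past an adjusted p of 0.05 in limma for Dicer-deleted against control (horizontal axis, logarithmic above 1 and linear from 0 to 1), higher and lower, for the reported fit and each other setting. Settings give 0 to 8 calls in all, except that control 1 as the only control gives 32, no control 1 gives 6766 and array weights give 9673.

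Genes with the smallest p-values below the called one included several of the cell surface and of the blood lineages; apart from Lrmda none of them passed after adjustment. Pdpn, which encodes podoplanin, the ligand of the platelet receptor Clec1b, read 7.83, 8.44 and 7.93 in controls and 6.38, 5.71 and 6.28 in Dicer-deleted cells. The groups did not overlap and the difference was −1.94 (SE 0.22, limma, adjusted p = 0.056), with −1.70 against control 1 alone. Pdpn came past the threshold with the mean over its probes (adjusted p = 0.0473). In Drosha-deleted cells it stood at 6.31 ± 0.12 (SD, n = 3). H2-Eb2, a class II histocompatibility gene, read 7.16, 7.15 and 7.08 in controls and 5.93, 5.93 and 6.19 in Dicer-deleted cells. It was well above background on only 1 of those 3 Dicer-deleted arrays. Here too all 3 controls lay above all 3 Dicer-deleted arrays, by 1.11 on average (SE 0.12, limma, adjusted p = 0.056). The Drosha-deleted cells lay between them for H2-Eb2, at 6.51 ± 0.11. Clec11a, which encodes a secreted growth factor of blood progenitors, differed by −1.36 (adjusted p = 0.134), Ltbp1, a binding protein of latent TGF-beta, by −1.11, and Slc6a4, the serotonin transporter that platelets use, by −1.10. Gp6, the platelet collagen receptor, differed by −1.46 and is described with the platelet genes. Fmr1nb was not well above background on any Dicer-deleted array, and its level was at least 3.61-fold lower than in controls (adjusted p = 0.103). Lgalsl, Ryk, Plxnb3 and Stx11, the last a syntaxin of granule secretion, differed by −1.20, −0.77, −0.67 and −0.75. Against control 1 alone these 12 lowest genes, Lrmda included, differed by −0.64 for Plxnb3 to −2.31 for Fmr1nb. Control 1 was among the arrays by which they were picked, so their kept sign is no separate check.

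Cdkn2a was chosen after its values were seen, for the size of its difference. It encodes the cell cycle inhibitor p16 and, from another frame, Arf, which stabilises p53. It read 9.21, 9.17 and 9.77 in controls and 6.83, 6.46 and 7.32 in Dicer-deleted cells, so that every control lay above every Dicer-deleted array. The difference was −2.51 (SE 0.45), 5.71-fold lower, with an adjusted p of 0.134 in limma, and −2.34 against control 1 alone. In Drosha-deleted cells Cdkn2a read 8.52, 8.19 and 6.66, below all controls and overlapping the Dicer-deleted arrays. Among the 21 p53 target genes tested the median difference was −0.080, with 1 higher and 1 lower at an unadjusted p under 0.05 (12.1% and 8.39% of all features).

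On the higher side, Igfbp7, a secreted binding protein of insulin-like growth factors, read 8.70, 7.02 and 6.94 in controls and 9.61, 10.26 and 9.63 in Dicer-deleted cells. Control 1 stood apart from the other controls: the difference was 2.28 with all 3 (SE 0.43, adjusted p = 0.134) and 1.13 against control 1 alone. Cdk5rap1, an enzyme that modifies mitochondrial transfer RNAs, read 11.20, 11.16 and 10.90 in controls and 12.39, 12.63 and 12.64 in Dicer-deleted cells. Its controls lay close together, and it differed by 1.47 (SE 0.23, adjusted p = 0.134) with all controls and by 1.36 against control 1. Cadm1, a cell adhesion gene, was not well above background in either control with a sound scanner file, and Dicer-deleted cells were at least 2.02-fold higher (adjusted p = 0.134). Olfr533, an olfactory receptor gene, was likewise at least 1.72-fold higher. Nova1, an RNA-binding splicing factor best known from neurons, differed by 1.23 (0.80 against control 1 alone) and Arl9, a small GTPase gene, by 1.21. In Drosha-deleted cells Nova1 stood at 9.05 and Arl9 at 9.57, against 8.84 and 9.16 in Dicer-deleted cells. By contrast Cadm1 stood at 5.40 and Cdk5rap1 at 11.61 there, against 6.59 and 12.56 in Dicer-deleted cells. Tgif2-ps1, Cyp2c37, Mia, Lcn6, Snx22 and Olfr1243 differed by 1.19, 1.16, 0.76, 0.74, 0.71 and 0.60. None of these 12 passed after adjustment. All 12 kept their sign against control 1 alone, but control 1 was among the arrays by which they were picked, so this is no separate check.

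Of the gene lists examined, that of megakaryocytes and platelets had the largest share of members below controls at an unadjusted p under 0.05. Of its 20 tested genes, 15 (75%) were lower at an unadjusted p under 0.05 and 0 higher, against 8.39% of all features lower; the list's median difference was −0.68 against 0.0066 over all features, and 0 members passed after adjustment. The 3 Dicer-deleted arrays lay below all 3 controls for 15 genes, against 9.57% of all features. Against control 1 alone the median was −0.76, 11 of 20 genes were lower at an unadjusted p under 0.05 against 2.25% of all features, and 18 of 20 had all 3 Dicer-deleted arrays below control 1 against 21.7%. Without control 2 the median was −0.59 with 11 lower, against 4.2% of all features. Without Dicer-deleted replicate 2 it was −0.67 with 14 lower, against 4.94% of all features. Over all single arrays left out the median stayed between −0.75 and −0.59. In bulk samples such as these, fewer cells of a type and less RNA per cell cannot be told apart.

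The surface receptors of platelets made up 11 of these genes, with 8 lower at an unadjusted p under 0.05 in limma (8.39% of all features) and a median of −0.71. Gp6, which binds collagen, read 9.33, 9.64 and 9.15 in controls and 8.01, 7.73 and 8.01 in Dicer-deleted cells, over 1 log2 unit lower on each array (difference −1.46, SE 0.22, adjusted p = 0.134). Clec1b, the podoplanin receptor, read 13.38, 13.14 and 12.61 in controls and 12.17, 11.96 and 12.02 in Dicer-deleted cells. Its difference was −0.99 (SE 0.30, unadjusted p = 0.00865, adjusted p = 0.182), and the groups did not overlap. Of the complex that binds von Willebrand factor, Gp1ba differed by −0.88, Gp9 by −0.75 and Gp1bb by −0.71, each with groups that did not overlap, but Gp5 by −0.20 with overlap. Treml1, a receptor of platelet granule membranes, differed by −0.95, the tetraspanin gene Cd9 by −0.68 (−0.37 against control 1 alone), and the thrombin receptor family gene F2rl2 by −0.41. The fibrinogen receptor was split: its beta chain gene Itgb3 differed by −0.53, while its alpha chain gene Itga2b read 14.29, 13.61 and 13.07 in controls and 13.82, 13.68 and 13.77 in Dicer-deleted cells. Itga2b differed by 0.10 with all controls and by −0.53 against control 1 alone.

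All 5 genes of platelet granule contents were lower at an unadjusted p under 0.05 in limma, against 8.39% of all features. Ppbp, the precursor of a neutrophil-attracting chemokine, read 15.22, 15.15 and 14.42 in controls and 13.79, 13.40 and 13.47 in Dicer-deleted cells. All controls were above all Dicer-deleted arrays, by 1.37 on average (SE 0.31, unadjusted p = 0.00154, adjusted p = 0.15). Pf4, platelet factor 4 and among the brightest genes on the array, read 18.43, 18.40 and 18.39 in controls and 18.12, 18.02 and 17.86 in Dicer-deleted cells. Its difference was small, −0.41 (SE 0.12, limma, adjusted p = 0.181), but larger than the spread of the controls. That spread may be compressed, since the gene lies near the top of a scale with nearly equal quantiles in all columns. Thbs1, the adhesive glycoprotein thrombospondin, differed by −1.30, Vwf, von Willebrand factor, by −0.67, and Selp, the adhesion receptor P-selectin of granule membranes, by −0.53. Of the remaining 4 genes, Rab27b, a GTPase of granule secretion, differed by −1.13 and the protein kinase C substrate gene Plek by −0.69, each at an unadjusted p under 0.05; against control 1 alone they differed by −0.72 and −0.45. Tubb1, the platelet beta tubulin, differed by −0.44 with overlapping groups, and by −0.09 without control 2. Nfe2, the transcription factor that drives platelet release, read 15.39, 15.53 and 15.40 in controls and 15.63, 15.60 and 15.44 in Dicer-deleted cells, 0.12 above controls.

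**Figure D3:**
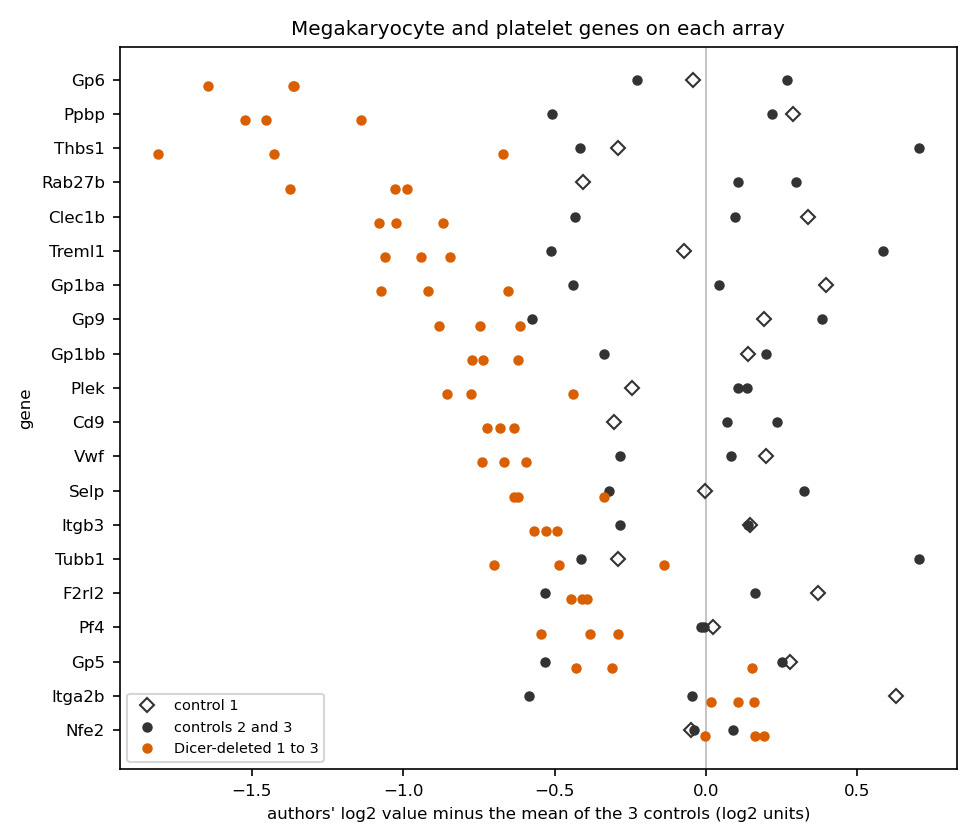
Authors' log2 value minus the mean of the 3 controls (horizontal axis) for 20 megakaryocyte and platelet genes, one row a gene, with control 1 as a diamond, controls 2 and 3 as dark dots and the 3 Dicer-deleted arrays as orange dots. For 15 of the 20 genes all 3 Dicer-deleted arrays lie left of all 3 controls; Itga2b, Nfe2, Gp5, F2rl2 and Tubb1 overlap.

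Megakaryocyte genes are classically driven by GATA1 with FLI1, an ETS factor, which bind GATA and GGAA motifs. The transcription factor gene Gata1 read 13.74, 14.09 and 13.92 in controls and 13.67, 13.33 and 13.27 in Dicer-deleted cells, a difference of −0.49 (unadjusted p = 0.00892, adjusted p = 0.182) and −0.32 against control 1 alone. Tal1, another factor of stem cells and megakaryocytes, differed by −0.98 (unadjusted p = 0.00785, adjusted p = 0.181) and by −0.41 against control 1 alone. RefSeq promoters (GRCm38.p6) were found for 15 of the 20 genes and were searched on both strands over the 200 bases before the start. GATAA, or TTATC on the other strand, was in 7 of 15 (46.7%) against 18.4% of 27025 promoters of the same length, and GGAA, or TTCC, in 15 of 15 against 88.9%. The motifs do not overlap each other in letters, and a match is not evidence of binding. These shares describe the megakaryocyte list as a whole and say nothing of the Dicer comparison. Whether Gata1, Tal1 or the motifs have a part in the differences was not tested. The windows of the genes with the smallest p-values among these 15 show both cases, with matches in capitals; Gp6 lies at chr7:4397745-4397944 (minus strand), Ppbp at chr5:90768318-90768517 (plus) and Gp1bb at chr16:18622404-18622603 (minus).
Gp6: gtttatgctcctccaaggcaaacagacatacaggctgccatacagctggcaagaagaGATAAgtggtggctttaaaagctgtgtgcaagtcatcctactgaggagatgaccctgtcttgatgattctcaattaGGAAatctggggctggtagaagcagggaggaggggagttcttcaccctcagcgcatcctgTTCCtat
Ppbp: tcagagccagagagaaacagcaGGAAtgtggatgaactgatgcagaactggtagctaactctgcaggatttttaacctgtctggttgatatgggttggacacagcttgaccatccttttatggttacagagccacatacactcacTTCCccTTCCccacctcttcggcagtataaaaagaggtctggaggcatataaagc
Gp1bb: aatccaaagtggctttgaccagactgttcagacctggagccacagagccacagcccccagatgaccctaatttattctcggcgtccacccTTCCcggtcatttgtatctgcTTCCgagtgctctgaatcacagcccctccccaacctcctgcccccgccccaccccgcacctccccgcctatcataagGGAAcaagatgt
Of these 3 windows only that of Gp6 holds GATAA.

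Dendritic cell and antigen presentation genes also stood below controls, in part through a single array. Of 27 tested genes 11 were lower and 0 higher at an unadjusted p under 0.05 (8.39% of all features lower), the median was −0.63, and 0 passed after adjustment. The mean log2 level of the list was 9.80, 9.88 and 9.96 in controls and 9.44, 8.92 and 9.65 in Dicer-deleted cells, with replicate 2 the lowest. Without that array the median was −0.30 with 6 genes lower (4.94% of all features), and against control 1 alone it was −0.36. Without control 2 it was −0.65 with 8 lower, against 4.2% of all features.

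Ccr7, the receptor that guides dendritic cells to lymph nodes, read 10.08, 10.36 and 9.47 in controls and 8.34, 8.69 and 8.80 in Dicer-deleted cells. These groups did not overlap (difference −1.36, SE 0.31, unadjusted p = 0.00189, adjusted p = 0.154), and the difference against control 1 was −1.47. Cd83, a marker of mature dendritic cells, read 8.54, 9.27 and 8.35 in controls and 7.49, 6.85 and 7.71 in Dicer-deleted cells, again without overlap, at −1.37. Clec9a, a receptor for dead cells on cross-presenting dendritic cells, differed by −0.87 and the costimulator Cd86 by −0.84. The class II chain H2-Eb1 differed by −1.22, H2-Ab1 by −0.65 and the invariant chain Cd74 by −0.74, the last by −0.45 without replicate 2. For H2-Eb1 the Dicer-deleted values were 13.04, 12.49 and 13.61, so replicate 3 came within 0.3 of control 1 at 13.86. The integrin gene Itgax differed by −1.05, with replicate 3 within the controls and −0.62 without replicate 2, and the chemokine gene Ccl17 by −1.31, or −0.28 against control 1 alone. Ccl22, its neighbour in function, was not well above background on the Dicer-deleted arrays, and differed by −0.76 with all controls and by −0.50 without control 2.

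Monocyte and macrophage genes depended on Dicer-deleted replicate 2 to a larger degree. Over 29 tested genes the median was −0.34 with all arrays and −0.048 without that replicate. At an unadjusted p under 0.05, 3 were lower and 2 higher, against 8.39% and 12.1% of all features. Without control 2 the median was −0.55, with 5 lower and 0 higher (4.2% and 5.38% of all features). Against control 1 alone it was −0.52, and 18 of 29 genes had all 3 Dicer-deleted arrays below control 1 (21.7% of all features). C1qa, a chain of the first complement component, read 7.55, 7.45 and 7.66 in controls and 6.12, 5.67 and 6.91 in Dicer-deleted cells. It stayed below controls on all 3 arrays (difference −1.32, SE 0.29, unadjusted p = 0.00135, adjusted p = 0.148). Mrc1, the macrophage mannose receptor, read 10.61, 10.30 and 9.99 in controls and 8.97, 7.15 and 10.54 in Dicer-deleted cells, so that replicate 3 lay within the controls. C1qc followed C1qa on the first arrays at 6.72 and 5.78, but its replicate 3 value of 8.37 lay within the control range. Clec4n, a lectin receptor for fungi, differed by −0.90, or −0.54 without Dicer-deleted replicate 2, and Itgam, the integrin chain CD11b of myeloid cells, by 0.70 with all controls but 0.13 against control 1 alone. Marco, a scavenger receptor, differed by 0.45 and 0.20 in the same comparisons.

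Chemokine and cytokine genes showed the same dependence on single arrays. Of 20 tested, 6 were lower and 0 higher at an unadjusted p under 0.05, with a median of −0.46, against 8.39% of all features lower. Without Dicer-deleted replicate 2 only 1 was lower (4.94% of all features), with a median of −0.39, and against control 1 alone the median was −0.24. Ccl2, which draws monocytes, read 12.23, 11.46 and 12.19 in controls and 10.28, 9.44 and 11.95 in Dicer-deleted cells, and its neighbour Ccl7 read 9.52, 8.07 and 9.40 against 7.13, 5.74 and 9.35. Replicate 3 overlapped the controls for both genes. Ccl8 differed by −1.24 with overlapping groups, and by −0.72 without control 2. It was well above background on only 1 of 3 Dicer-deleted arrays. Ccl12 differed by −0.47, and the neutrophil-attracting Cxcl3 by −1.01, or −0.61 against control 1 alone. The lymphoid genes Il7r, a cytokine receptor of early lymphocytes, and Blnk, a linker of B cell receptor signalling, had the same form: Il7r was at 7.50, 6.92 and 8.66 and Blnk at 7.82, 7.46 and 9.54 in Dicer-deleted cells, against controls of 8.54 to 8.91 and 9.22 to 9.88.

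Defining markers of several mature blood cells were present in all cultures, and their share in the differences above was not tested. All 4 LSK markers were above background, with Kit at 12.01, 12.43 and 12.50 in controls and 12.47, 12.88 and 12.34 in Dicer-deleted cells, and Ly6a, which encodes Sca1, at 12.27, 10.11 and 10.73 against 11.77, 10.44 and 11.50. Neither marker separated the groups. The neutrophil list had a mean log2 level of 13.13 to 14.40 in controls and 12.63 to 14.31 in Dicer-deleted cells, and 0 of its 21 tested genes reached an unadjusted p of 0.05 in limma. The eosinophil list had 0 of 12; its level was 8.46 to 8.50 in controls and 8.40, 7.25 and 8.88 in Dicer-deleted cells. Without that replicate the eosinophil median went from −0.37 to 0.092 and the neutrophil median from −0.078 to 0.31. The red cell list had a median of 0.0022 over 18 genes and mast cell and basophil genes −0.16 over 18. Of the defining markers of B cells, Pax5 was below the filter and Cd79a read at most 6.23; Cdh5 of endothelium was below the filter. Cd3e of T cells read between 9.62 and 10.74, and Col1a1 of stroma at most 6.56.

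**Figure D4:**
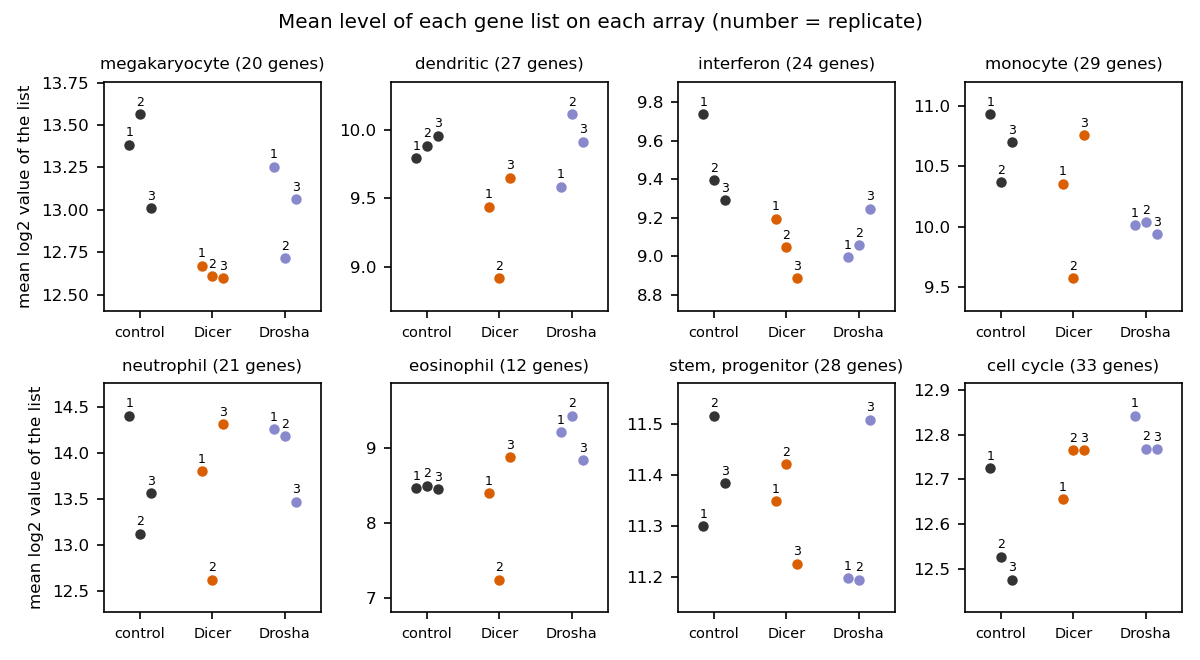
Mean log2 level of 8 gene lists (vertical axes) on each of the 9 arrays, grouped as control, Dicer-deleted and Drosha-deleted, with the replicate number above each point. The megakaryocyte list lies at 12.60 to 12.67 on the Dicer-deleted arrays and at 13.01 to 13.56 in controls, while the dendritic, monocyte, neutrophil and eosinophil lists are lowest on Dicer-deleted replicate 2 and the interferon list is highest in control 1.

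Interferon-stimulated genes stood below controls in Dicer-deleted cells, by the widest margin against control 1. These genes are switched on by type I interferons and include sensors of double-stranded RNA. Of 24 tested genes 8 were lower and 0 higher at an unadjusted p under 0.05 (8.39% of all features lower), the 3 Dicer-deleted arrays lay below all controls for 13, against 9.57% of all features, and 0 passed after adjustment. The median was −0.44, with −0.48 and 7 genes lower without control 2 (4.2% of all features), and −0.76 against control 1 alone. Control 1 had the highest mean level of the list, 9.74, with 9.39 and 9.29 in the other controls and 8.89 to 9.19 in Dicer-deleted cells. Against controls 2 and 3 the median was −0.32. The Drosha-deleted cells, at 8.99 to 9.25, overlapped the Dicer-deleted ones.

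The antiviral GTPase gene Mx1 read 6.52, 6.40 and 6.45 in controls and 5.78, 5.39 and 6.02 in Dicer-deleted cells. Only 1 of those 3 Dicer-deleted arrays was well above background. The groups did not overlap (difference −0.73, SE 0.16, unadjusted p = 0.00137, adjusted p = 0.148). Ifit1, which binds foreign RNA ends, read 7.35, 7.20 and 6.84 in controls and 6.61, 6.31 and 5.88 in Dicer-deleted cells, at −0.86. Ifi44, an induced gene of unsettled role, differed by −1.01, the RNA sensor Ifih1 by −0.46 and its relative Dhx58 by −0.62. The deconjugating protease Usp18 differed by −0.50 and Stat2, which carries the interferon signal to the nucleus, by −0.43. Isg15, a ubiquitin-like protein, read 11.88 in control 1 but 10.92 and 10.80 in controls 2 and 3, against 10.90, 10.55 and 10.37 in Dicer-deleted cells. Its difference was −0.60 with all controls and −1.28 against control 1.

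Stem and progenitor genes had a median near 0, and cell cycle genes differed mostly against controls 2 and 3. Of 28 tested stem and progenitor genes 4 were lower and 1 higher at an unadjusted p under 0.05 (8.39% and 12.1% of all features), with a median of −0.066 and −0.0041 against control 1 alone. The lower ones included Slamf1, the stem cell marker CD150, at −0.81, and Esam, an adhesion gene of stem cells and megakaryocytes, at −0.81, or −0.53 without control 2. Of 33 cell cycle genes 6 were higher and 2 lower with all controls at an unadjusted p under 0.05 in limma (12.1% and 8.39% of all features). Their median was 0.087 with all controls, 0.12 against controls 2 and 3, and 0.042 against control 1 alone. Aurkb, a mitotic kinase, read 8.93, 6.69 and 6.32 in controls and 9.08, 9.01 and 8.96 in Dicer-deleted cells. Control 1 lay beside the Dicer-deleted arrays, so the difference was 1.70 with all controls and 0.082 against control 1. Ccne2, a cyclin of S phase entry, behaved likewise at 1.05 and 0.017, as did Cdk1 at 0.58 and 0.13 and the replication helicase gene Mcm2 at 0.60 and 0.27. Ccne1, the other cyclin E gene, differed by −0.42 with all controls and by −0.51 against control 1, with groups that did not overlap. Noncoding lincRNA regions also depended on the choice of controls: 858 of 3601 (23.8%) were higher at an unadjusted p under 0.05 against 12.1% of all features, their median was 0.20 with all controls, 0.31 against controls 2 and 3, and 0.016 against control 1.

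The known targets of microRNAs made in blood cells were not higher as a group in Dicer-deleted cells. Over 15 lists with 158 genes in all, 145 were tested; 9 were higher and 24 lower at an unadjusted p under 0.05 (12.1% and 8.39% of all features), 0 passed after adjustment, and the median was −0.12. Without control 2 the median was −0.057 with 7 higher and 14 lower, and against control 1 alone it was 0.039 with 3 higher and 3 lower (1.74% and 2.25% of all features). In the fit without control 2, 5.38% of all features were higher and 4.2% lower at an unadjusted p under 0.05 in limma. Each list is named for a microRNA, family or cluster, and the cluster miR-17-92 holds several seeds. The seed, bases 2 to 8 of the mature microRNA, is in capitals in the sequences below (RefSeq, GRCm38.p6). They show the microRNAs whose targets are described next: let-7a and let-7g share a seed, as do miR-17 and miR-20a of the miR-17-92 cluster, and miR-27b and miR-22 come from the hosts Aopep and Mir22hg.
let-7a-5p: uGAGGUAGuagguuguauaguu
let-7g-5p: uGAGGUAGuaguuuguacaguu
miR-155-5p: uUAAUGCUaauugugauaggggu
miR-17-5p: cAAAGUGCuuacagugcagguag
miR-20a-5p: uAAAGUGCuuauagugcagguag
miR-27b-3p: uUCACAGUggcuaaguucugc
miR-22-3p: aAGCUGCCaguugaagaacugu

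The let-7 targets had a median of −0.0092 over 22 tested genes. At an unadjusted p under 0.05 in limma, 1 was higher and 3 lower (12.1% and 8.39% of all features). Dicer1, the deleted gene itself, is among these 3 and among the 24 lower genes of all lists. Hmga2, a chromatin protein of fetal stem cells with many let-7 sites, read 7.27, 8.82 and 8.69 in controls and 9.05, 9.01 and 8.56 in Dicer-deleted cells. Control 1 was the low array: the difference was 0.61 with all controls (adjusted p = 0.352) and 1.60 against control 1 alone. Plagl1, a zinc finger gene, differed by 0.66 with all controls and by 0.16 against control 1. For miR-155 the median over 14 genes was −0.30, with 4 lower and 0 higher (8.39% and 12.1% of all features). It was −0.11 both against control 1 alone and without Dicer-deleted replicate 2, where 3 were lower (4.94% of all features). The 4 genes included the transcription factor gene Maf, at 6.41, 7.09 and 7.17 in controls against 5.71, 5.71 and 6.10, and Jarid2, a Polycomb cofactor, at −0.73. Against control 1 alone Maf differed by −0.57 and Jarid2 by −0.41. Maf was well above background on only 1 of 3 Dicer-deleted arrays. For miR-17-92 the median over 19 genes was −0.19 with 4 lower and 0 higher (8.39% and 12.1% of all features), and against control 1 alone −0.044. The largest was Thbs1, which is also a platelet gene. Timp3, a protease inhibitor targeted by miR-21 and other microRNAs, differed by −1.10, and Ets1 by −0.87 with all controls but −0.056 against control 1.

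**Figure D5:**
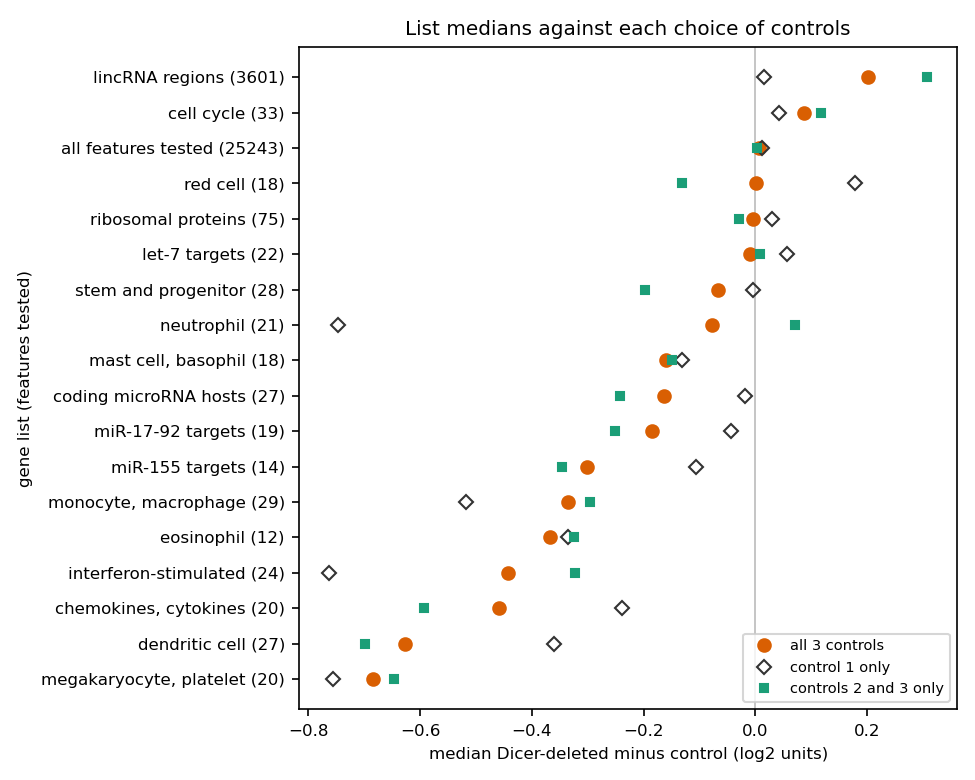
Median difference of Dicer-deleted minus control in log2 units (horizontal axis) for 17 gene lists and for all features tested, with all 3 controls, control 1 only, and controls 2 and 3 only. The megakaryocyte list has a median of −0.76 to −0.65 under all 3 choices, while the lincRNA regions go from 0.016 to 0.31 and the neutrophil list from −0.75 to 0.071.

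Among the transcripts that carry microRNA hairpins, Aopep and Mir22hg were lower in Dicer-deleted than in Drosha-deleted cells, while most coding hosts did not differ at an unadjusted p under 0.05. Aopep, an aminopeptidase gene that hosts miR-23b and miR-27b, read 10.29, 10.28 and 10.29 in controls and 10.55, 10.54 and 10.41 in Dicer-deleted cells. It lay 0.21 above controls (adjusted p = 0.306), and the difference from Drosha-deleted cells was −2.20 (SE 0.11, adjusted p = 0.000156). Mir22hg, the noncoding host of miR-22, read 7.33, 7.62 and 7.70 in controls and 7.53, 6.95 and 7.17 in Dicer-deleted cells, a difference from Drosha-deleted cells of −1.92 (adjusted p = 0.0307). Mir17hg, the host of miR-17 and miR-20a, read 10.29, 11.23 and 11.40 in controls and 10.73, 10.61 and 10.64 in Dicer-deleted cells. Its difference from Drosha-deleted cells was −1.90 (adjusted p = 0.0848). Of 8 tested noncoding hosts 0 reached an unadjusted p of 0.05 against controls in limma, and 4 were lower than in Drosha-deleted cells, where 3.02% of all features were. Of 27 coding hosts 4 were lower and 2 higher than controls at an unadjusted p under 0.05 (8.39% and 12.1% of all features), and 2 lower and 0 higher than in Drosha-deleted cells (3.02% and 2.35%).

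The test between the deletions called 11 features. Drosha was higher in Dicer-deleted cells and 10 features (0.0396% of those tested) were lower, namely Aopep, Dgcr8, Cfl2, Mir22hg and 6 noncoding regions. Dgcr8, whose messenger RNA Drosha is known to cleave, stood at 10.72 ± 0.25 in Dicer-deleted and 12.32 ± 0.12 in Drosha-deleted cells (SD, n = 3; adjusted p = 0.0193). The gene Cfl2, for a cofilin that cuts actin filaments, stood at 9.54 ± 0.06 against 11.24 ± 0.27 (adjusted p = 0.0196), with controls at 9.55 ± 0.28. Mir22hg, at −0.34, lay farthest from its control mean in Dicer-deleted cells among these 4 lower genes. The count was 5 without any 1 Dicer-deleted array, 4 without Drosha-deleted replicate 1, 6 without replicate 2 or 3 of that group and 7 without control 3. Of the 20 megakaryocyte genes 6 were lower and 0 higher than in Drosha-deleted cells at an unadjusted p under 0.05 (3.02% and 2.35% of all features), with a median of −0.38 and 0 past adjustment; the arrays of the deletions did not overlap for 6 lower and 0 higher, against 8.33% and 6.51% of all features. Ppbp differed there by −1.09, Gp6 by −0.70 and Thbs1 by −1.34, whereas Vwf differed by 0.038 and Treml1 by 0.012. The dendritic list had 7 lower and 0 higher (3.02% and 2.35% of all features), with a median of −0.37. The 7 included Cd83 at −1.88 and Ccl17 at −3.14 (limma, unadjusted p = 0.000245, adjusted p = 0.177). For both genes the Drosha-deleted mean also lay above the control mean, at 9.24 against 8.72 for Cd83 and 11.08 against 9.25 for Ccl17. The interferon list had a median of −0.082.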

How the data were processed

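RNA from 9 cultures was hybridised to one-colour Agilent arrays. The deposited scanner files hold intensity values that, per the file headers, were made with Feature Extraction 10.7.3.1; the authors' series values are deposited on a log2 scale with nearly equal quantiles in all columns. The submitters' processing notes name limma, and the sources used here give no further step. Control spots were left out, spots of a probe averaged, and a probe kept when well above background in at least 2 of the 8 scanner files other than control 2. A gene was its brightest kept probe. One mean per group was fitted over 9 columns with limma 3.58.1 in R 4.3.3, two-sided, with Benjamini-Hochberg adjustment over all features at 0.05. Lists are given by counts and medians. The members, lists and alternatives were chosen with earlier results of these data known. Named genes are those past the threshold, filled with the smallest p-values to 12 a direction, the pathway genes, and members of lists with small p-values; all 20 megakaryocyte genes, and list members with larger p-values, were named with their values known. A bound against background is the mean of the brighter group over the other group's background limit. Precision is limited by the number of arrays. The scanner fits subtracted the 75th percentile or used normexp with an offset of 50.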

Additional observations from a re-analysis of the deposited data

How the results depend on the processing

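The 2 calls against controls became 0 to 6766 when 1 array was left out, 0 in the 6 samples compared (limma, 4162 at an unadjusted p under 0.05), 4 with a filter on every array of a group or the mean over probes, 9673 with array weights, 1 with scanner values (1233), 7 with scanner values without the control 2 file, 0 with normexp and quantile normalization without the control 2 file, which changes both (2311) and 32 with control 1 as the only control, an alternative chosen after seeing the data. The 11 calls against Drosha-deleted cells became 4 to 16 with 1 array left out, 7 with the slide as a block, 132 with array weights, 19 with an intensity trend, 0 with scanner values (353 at an unadjusted p under 0.05 in limma) and 4 without the control 2 file. The causes were not tested. The replicate number as a block gave 0 calls against controls (4635 at an unadjusted p under 0.05 in limma) and 4 against Drosha-deleted cells. Same-numbered arrays deviated with r from −0.24 to 0.21 and differently numbered ones from −0.26 to 0.25. No pairing by number was seen, but with so few arrays and uncertain control columns this check cannot exclude one. Lrmda had an adjusted p of 0.123 in the 6 samples compared, 0.234 with the replicate block and 0.0541 with normexp without the control 2 file. LOC100046362 had the same values there.

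Of 106 genes named with their differences, 92 kept their direction under every setting run. Against control 1 alone Drosha was −0.0073, Xpo5 −0.013, Ago3 0.0056, Itga2b −0.53, Ly6a −1.03, Mir17hg 0.37 and Cfl2 0.31. With scanner values the flawed control 2 file was included, and the median difference over all features was 0.29. In that fit Ago3 was 0.090, Gp5 0.28, Vwf 0.042, Selp 0.12, Cd9 0.0100, Stat2 0.030, Ly6a −0.0061, Mir17hg 0.29 and Cfl2 0.49. Without the control 2 file there Ago3 was 0.16, Ly6a −0.33 and Cfl2 0.053, and with normexp, also without that file, Ly6a was −0.27 and Cfl2 0.034. Array weights gave Dgcr8 −0.054 and Gp5 0.043, the slide block Itga2b −0.20 and Cfl2 0.12, and the mean over probes Plagl1 −0.14. With 1 array left out Dgcr8 ranged from −0.073 to 0.17, Xpo5 from −0.0061 to 0.19, Itga2b from −0.20 to 0.41, Ly6a from −0.26 to 0.82 and Cfl2 from −0.16 to 0.12. The megakaryocyte median was −0.23 with scanner values, −0.63 without the control 2 file there, and −0.75 to −0.53 under every other setting but control 1 alone, where it was −0.76.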
